A study of Mus musculus with 2 samples.

Results

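Monocytes and macrophages were described in 2 libraries of mediastinal lymph node (MedLN) cells from wild-type C57/B6J mice with ovalbumin (OVA)-induced asthma, measured by droplet single-cell RNA-seq. Cells with at most 10% mitochondrial UMIs and at least 200 genes were searched for 3 or more UMIs of Lyz2, or 3 or more UMIs summed over C1qa, C1qb and C1qc. Cells with any UMI of Cd3e, Cd3d or Cd3g, or with more than 1 UMI of Cd79a and Cd79b together, were left out. This gave 59 of 18100 cells, 34 of 9495 in the library without butyrate (w/o butyrate, labelled OVA) and 25 of 8605 in the library with butyrate (w/ butyrate, labelled C4). A UMI is 1 counted RNA molecule. Cells with 3 or more C1q UMIs (20 w/o and 13 w/ butyrate) are called macrophage-like here, and the other members of the set (14 and 12) are called C1q-low.

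Both libraries came from mice that carried no transgene, were 5 to 13 weeks old, and received 50 µg of OVA with alum by intraperitoneal injection on days 0 and 7. OVA was then given into the nose on days 14 to 16, and MedLN cells were collected on day 17. The group labelled C4 also received butyrate, a short-chain fatty acid; the sources used here give drinking water and gavage as routes and do not tie 1 of them to the sequenced mice. Each library pooled the cells of 4 mice, so a value stands for 1 pool, no test between conditions was possible, and differences between pools or mice cannot be told apart from an effect of butyrate. Intervals below are at the 95% level and cover counting error only.

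Monocytes are blood cells that enter inflamed tissue and lymph nodes and can become macrophages, the phagocytes that take up dead cells, debris and antigen. Lyz2 encodes lysozyme M, an enzyme against bacterial walls that monocytes, macrophages and granulocytes make. C1qa, C1qb and C1qc encode the chains of C1q, the recognition part of the classical complement pathway, which in lymphoid tissue is made mainly by macrophages. In allergic airway disease, interleukin-4 and interleukin-13 are known to drive macrophages towards alternative activation, with Chil3 (a chitinase-like protein), Retnla and Alox15 among the induced genes.

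The genes that chose the cells lie in 2 compact loci (GRCm38). On chr4 the minus strand holds C1qb at chr4:136880129-136886187, C1qc at chr4:136889804-136893065 and C1qa at chr4:136895917-136898803. The 3 genes span 18675 bases, with gaps of 3616 and 2851 bases between them. On chr10, also on the minus strand, Lyz2 lies at chr10:117277331-117282321, 5475 bases from its near-identical neighbour Lyz1 at chr10:117287797-117292868, so reads could be split between the 2 lysozyme genes and the counts of Lyz1 are uncertain. RefSeq upstream sequences were at hand for 3 of the 4 rule genes, and those of C1qb and Lyz2 are printed because these genes define the cells. The windows, chr4:136886201-136886450 and chr10:117282322-117282522, lie upstream of the first exon and are written 5′ to 3′ on the minus strand. The capitals mark AGGAAGT, a core of the ETS family to which the myeloid factor PU.1 belongs, here on the opposite strand and so printed as ACTTCCT.
C1qb upstream: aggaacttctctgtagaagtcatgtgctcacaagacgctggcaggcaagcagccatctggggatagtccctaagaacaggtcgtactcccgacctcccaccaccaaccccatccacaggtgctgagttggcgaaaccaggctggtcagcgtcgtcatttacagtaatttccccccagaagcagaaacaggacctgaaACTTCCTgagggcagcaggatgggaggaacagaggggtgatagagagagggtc
Lyz2 upstream: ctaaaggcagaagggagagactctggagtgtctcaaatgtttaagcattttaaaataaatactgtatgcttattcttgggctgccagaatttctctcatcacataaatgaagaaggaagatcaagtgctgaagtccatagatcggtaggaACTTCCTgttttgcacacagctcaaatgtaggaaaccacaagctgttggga

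The AGGAAGT letters, searched on both strands, were chosen after these windows had been read. They stood in 3 of 3 rule genes with an entry, in 6 of 19 resident macrophage genes and in 7.69% of all 32851 promoters. The overlapping core GAGGAAG, searched first, stood in 1 of those 3 genes and in 10.6% of all promoters. A match says only that the letters are there.

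The markers given with the cell type were found in the cells. Summed over the 59 cells, Lyz2 had 3377 UMIs w/o and 3302 w/ butyrate, and its log2 ratio to all other cells was 8.96 and 8.26. With genes ordered by the lower of the 2 libraries' ratios, Lyz2 came first, followed by C1qa, C1qb, Fn1 (fibronectin), C1qc, Chil3, Tgfbi, Ccl24, Ifitm3 and Fcer1g, the signalling chain of Fc receptors. S100a9 and S100a8 came later in this order through their ratios w/o butyrate (5.71 and 5.71), and w/ butyrate they lay above Lyz2, at 9.64 and 8.997. Lyz2 and the C1q genes were used by the rule, so their place is a description. Fcer1g, which the rule did not use, had a UMI in 32 of 34 and 21 of 25 cells.

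The members also held RNA on lists that mark other cell types. The 10 genes of eosinophils, basophils and mast cells had 0 UMIs in both libraries, and the 7 genes of NK cells had 2 UMIs w/o and 0 w/ butyrate. The T cell list had 12 and 16 UMIs and the B cell list 47 and 41, led by Trbc2 and Ighm. These counts were largely fixed by the rule, which left out 15 and 14 cells for Cd3 or Cd79 UMIs. The conventional dendritic cell list had 84 and 35 UMIs in macrophage-like and 44 and 111 in C1q-low cells. Over all members its most abundant gene was Naaa (40 and 47), and 1 cell w/ butyrate held 45.9% of the list's UMIs. Itgax had 25 and 16 UMIs, Flt3 0 and 5, Zbtb46 0 and 2 and Ccr7 1 and 0. Xcr1 and Clec9a were at 0 in both libraries. The plasmacytoid dendritic cell list had 162 and 65 UMIs, of which 130 and 52 were of Bst2, a gene also in the interferon list, while Siglech was at 0. The plasma cell list had 54 and 43, mostly of Xbp1 (45 and 41), with Sdc1 and Tnfrsf17 at 0. Lists of stroma and endothelium (5 and 18 UMIs, led by Pecam1) and of red cells (2 and 1) were low. The part of these lists in the results below was not tested. The neutrophil list was the most abundant of them, with 1102 and 4452 UMIs in C1q-low cells against 11 and 10 in macrophage-like cells. Of these, 1093 and 4435 came from 3 and 2 cells with S100a8 and S100a9, described below. The members therefore included cells with a strong neutrophil signature, and the name monocytes and macrophages does not describe those 5 cells.

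T cells gave the background of the rule. In these cells, which should lack Lyz2, a Lyz2 UMI was found in 20 of 3561 cells w/o butyrate (0.562%) and in 40 of 3050 w/ butyrate (1.31%), at median depths of 5608 and 6557.5 UMIs. With each cell thinned to 2000 UMIs the shares were 0.169% and 0.362%. In the members, whose rule fixes the value, 97.1% and 100% of cells had a Lyz2 UMI, at median depths of 5328 and 4269 UMIs. For Chil3, T cells with a UMI made up 0.393% and 1.67%, or 0.141% and 0.362% after thinning. The Chil3 shares of members were 38.2% and 28%, above this background in both libraries.

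Some cells lay close to the limits of the rule. Among C1q-low cells, 2 w/o and 3 w/ butyrate had 3 to 5 Lyz2 UMIs. Outside, 2 and 2 cells had 2 Lyz2 UMIs. Among macrophage-like cells, 5 of 20 and 4 of 13 had 3 to 5 C1q UMIs, while 0 and 3 C1q-low cells had 1 or 2. A further 15 and 14 cells met the Lyz2 or C1q limit but were left out for Cd3 or Cd79 UMIs. In all, 25 cell barcodes were found in both libraries, 1 of them in a member w/ butyrate.

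**Figure D1:**
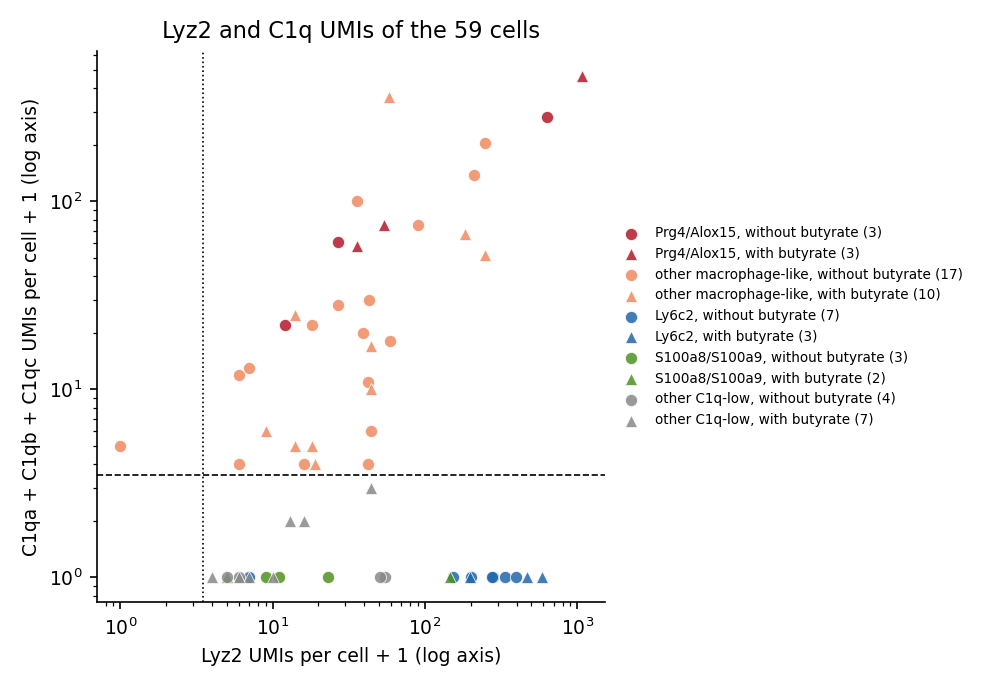
UMIs of Lyz2 (x axis) against summed UMIs of C1qa, C1qb and C1qc (y axis) in each of the 59 cells, both as UMIs + 1 on log axes, with symbols for subset and library. The 33 macrophage-like cells lie at 3 or more C1q UMIs, and 23 of the 26 C1q-low cells lie at 0.

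Within the macrophage-like cells, 3 cells of each library stood apart by Prg4 (lubricin, a secreted glycoprotein) and Alox15 (a lipoxygenase). Their cut-off of 5 UMIs of Prg4 and Alox15 together, like the other subsets below, was set after the cells had been seen. The lowest of the 3 had 11 UMIs w/o and 75 w/ butyrate, and no other macrophage-like cell had 1 to 4. Prg4 UMIs were 77, 6 and 22 w/o and 126, 32 and 40 w/ butyrate. Alox15 UMIs were 98, 5 and 4 against 84, 47 and 35. Gata6, a transcription factor known from macrophages of the serous cavities, had 3, 2 and 0 against 2, 2 and 4 UMIs, and 0 in all other macrophage-like cells. The 2 libraries overlapped for each of these genes.

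The same 6 cells held most of the Chil3 and Retnla RNA. Of the UMIs of the alternative activation list in all members, they carried 756 of 1228 w/o butyrate (61.6%) and 2540 of 3118 w/ butyrate (81.5%). Part of this follows from their choice, since Alox15 (107 and 166 UMIs) is on the list, and Chil3 and Retnla made up most of the rest. Of the other genes on the list, Mrc1, the mannose receptor, had 0 of 37 and 0 of 49 UMIs in the 6 cells, and Ccl24 10 of 231 and 14 of 302. Chil3 had 167, 58 and 25 UMIs in the 3 cells w/o butyrate, which is 76.0, 71.3 and 44.7 per 10000 UMIs of the cell. W/ butyrate it had 361, 927 and 704 UMIs, or 75.5, 583 and 544 per 10000. The deepest cell w/ butyrate thus lay at the level of the cells w/o butyrate, and the other 2 lay above all 3. Retnla, a resistin-like protein of allergic tissue, did not follow, with 0, 108 and 204 UMIs w/o and 178, 28 and 40 w/ butyrate.

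Some genes separated these 6 cells from the other macrophage-like cells alike in both libraries, and others did not. Of 342 genes compared, 37 (10.8%) were at least 2-fold higher and 33 (9.65%) at least 2-fold lower in the Prg4 and Alox15 cells of both libraries; the cells were chosen on part of this contrast, so the counts are a description. Fn1 had 340 UMIs in the 3 cells against 15 in the other 17 w/o butyrate, and 580 against 4 w/ butyrate (log2 ratios 6.03 and 6.54). Slpi, an inhibitor of neutrophil proteases, had 229 against 1 and 227 against 0 UMIs. Saa3 (an acute-phase protein), Cd5l, Fabp4, Cd9 and Itgam (integrin αM, log2 3.91 and 3.90) were also higher. On the lower side stood genes of antigen presentation by MHC class II. Cd74, the invariant chain, had 13 UMIs against 720 and 9 against 634 (log2 −4.13 and −6.48), and H2-Ab1 had log2 ratios of −4.28 and −6.15. Aif1 and Lst1 had 0 UMIs in the 6 cells, and Psap, a lysosomal precursor, had log2 ratios of −2.31 and −2.29. The other 272 genes were not past 2-fold the same way in both libraries, and 104 of the 342 had opposite signs. Hmgb2 (−2.11 w/o and 2.06 w/ butyrate), H2afz (−1.54 and 1.36) and Tuba1b (−1.34 and 1.86) were past 2-fold in opposite directions. Among genes outside the 342, Stmn1 stood at −5.35 and 4.43, Lyz1 at 4.29 and −1.79, and Egr1 at −0.28 and 4.51.

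The depths of the 6 cells were 21982, 8133 and 5587 UMIs w/o and 47815, 15888 and 12931 w/ butyrate. They held 24.4% of macrophage-like UMIs w/o and 57.9% w/ butyrate, and 1 cell of 47815 UMIs held 36.1% of that sum w/ butyrate. This cell also held 15 UMIs of Mki67, 11 of Top2a and 75 of Stmn1, markers of dividing cells. It carried 96.9% of the 350 cell cycle UMIs of the 3 cells w/ butyrate. Marco, a scavenger receptor, was found almost only in 1 of the 3 cells w/o butyrate, with 91 of the library's 92 UMIs in macrophage-like cells, and had 0 UMIs w/ butyrate.

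The other macrophage-like cells numbered 17 w/o and 10 w/ butyrate. At least 10 UMIs of H2-Ab1, a chain of the I-A molecule, were found in 6 of the 17 and 2 of the 10. C1q-low cells also held H2-Ab1, with 25 UMIs w/o and 224 w/ butyrate. C1qa had 297 and 223 UMIs in these cells, C1qb 231 and 227, and C1qc 151 and 91. Adgre1, which encodes F4/80, had only 5 and 1 UMIs here against 38 and 54 in the Prg4 and Alox15 cells. Timd4 had 0 and 0 UMIs here against 4 and 24 in the Prg4 and Alox15 cells. Depth varied widely: 7 of the 20 macrophage-like cells w/o butyrate (35%) and 4 of the 13 w/ butyrate (30.8%), all in this subset, had under 2000 UMIs, against 1.10% and 0.697% of all cells.

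**Figure D2:**
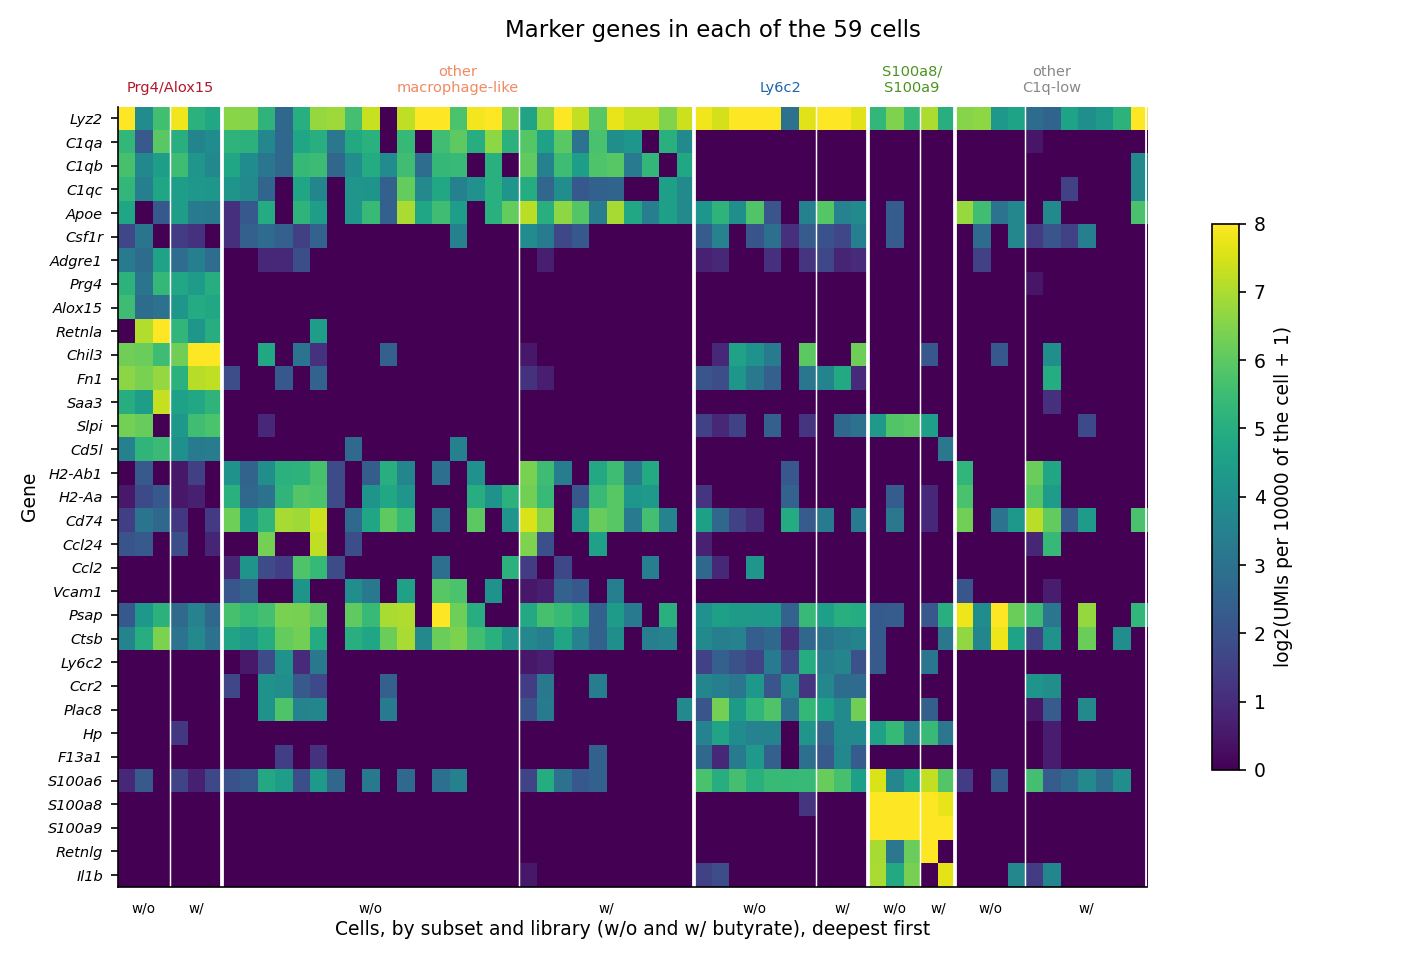
Marker genes (rows) in each of the 59 cells (columns, by subset and library, deepest cell first), as log2 of UMIs per 10000 of the cell + 1. Prg4 and Alox15 fill the columns of the 3 and 3 Prg4 and Alox15 cells, and S100a8 and S100a9 those of 3 and 2 C1q-low cells.

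Chemokines in these cells rested on few cells. Ccl24, an attractant of eosinophils, had 231 UMIs in the members w/o and 302 w/ butyrate. Of these, 219 and 276 were in 2 cells of each library, with 93 and 126 UMIs w/o and 204 and 72 w/ butyrate. Ccl2, an attractant of monocytes, had 60, 37 and 34 UMIs in the 3 highest macrophage-like cells w/o butyrate, which is 131 of 142 UMIs. W/ butyrate it had 6 UMIs in 3 cells, and the highest had 4. The 3 cells highest in Ccl2 each held 1 Cd79 UMI, the most the rule allows.

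C1q-low cells were sorted into 3 kinds, of which the S100a8 and S100a9 cells below were set apart first. Of the rest, those with 2 or more UMIs of Ly6c2, a surface marker of classical monocytes, are called Ly6c2 cells and numbered 7 w/o and 3 w/ butyrate. This level of Ly6c2 was also found in 3 macrophage-like cells w/o butyrate (18, 7 and 3 UMIs) and in 1 S100a8 and S100a9 cell w/ butyrate (9 UMIs). The macrophage-like cell with 18 also held 16 UMIs of Ccr2 and 61 of Plac8. Lyz2 ranged from 6 to 395 UMIs in the Ly6c2 cells w/o butyrate, with 274 as the median, and was 468, 588 and 198 w/ butyrate. The 7 and 3 cells all had UMIs of Ccr2, the receptor for Ccl2 (68 and 30 in sum), of Plac8 (234 and 123) and of S100a6 (294 and 179). Hp (haptoglobin) had 90 UMIs in 6 of 7 cells and 37 in 3 of 3 cells, and F13a1, the A chain of coagulation factor XIII, 45 in 6 and 25 in 3. No C1q UMI was found in any of the 10, but they were drawn from cells with fewer than 3, so this was largely fixed by their choice. The cell with 6 Lyz2 UMIs was also the one without Hp, F13a1 and Fn1. Flt3, a gene of the conventional dendritic cell list, had 0 UMIs in the 7 cells w/o butyrate. W/ butyrate it had 5 UMIs in 2 of the 3 cells.

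The second kind, 3 cells w/o and 2 w/ butyrate, held S100a8 and S100a9, the calprotectin subunits of neutrophils. S100a9 had 233, 159 and 151 UMIs w/o butyrate and 2131 and 34 w/ butyrate, and S100a8 158, 158 and 89 against 1283 and 26. The lowest sum in the kind was 240 and 60 UMIs, while the highest in any other member was 1 and 0. Cxcr2, a chemokine receptor of neutrophils, had 10, 6 and 6 against 13 and 6 UMIs, and Retnlg 32, 2 and 14 against 715 and 0. Ccr2 and Fn1 had 0 UMIs in all 5. In the library w/ butyrate 97.7% of the neutrophil-list UMIs of C1q-low cells came from 1 cell.

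The third kind, 4 cells w/o and 7 w/ butyrate, was mixed. Ace or Spn, genes of nonclassical monocytes, had UMIs in 2 cells w/o and 1 w/ butyrate. In the Ly6c2 cells, Ace and Spn each had UMIs in 2 of 7 and 2 of 3 cells. A cell w/ butyrate of 24869 UMIs held 178 UMIs of H2-Ab1, 41 of Ccr2 and 32 of Ccl17, a chemokine of antigen-presenting cells. Another w/ butyrate, of 18004 UMIs, held 72 of Ccl24 and 54 of Fn1. Of the 4 cells w/o butyrate, 2 held 130 and 128 UMIs of Psap, 61 and 61 of Ctsb (cathepsin B) and 15 and 6 of Gpnmb, a glycoprotein of phagocytes.

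**Figure D3:**
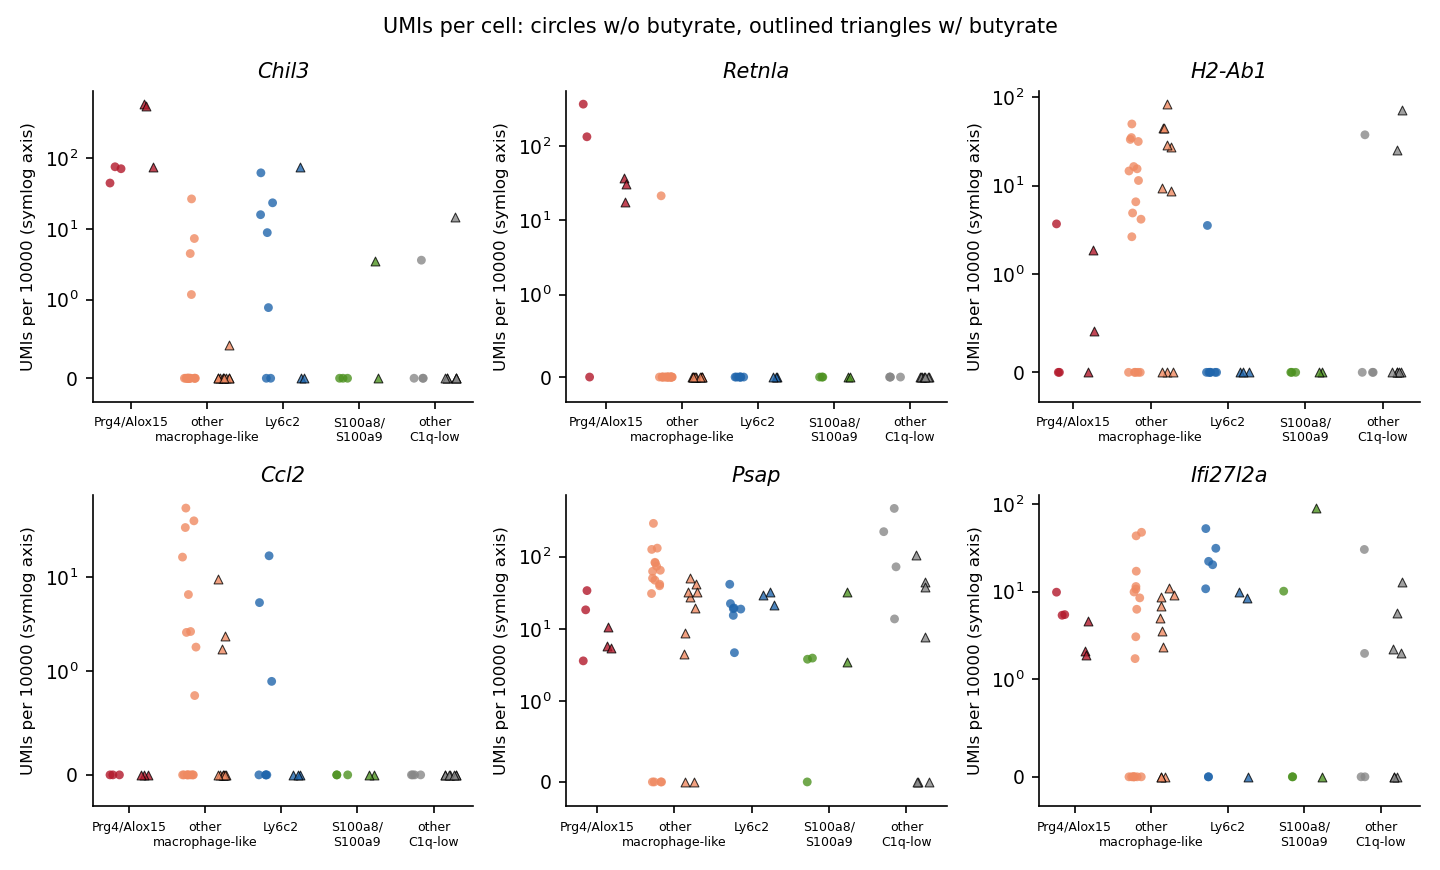
UMIs per 10000 of each cell (symlog y axis, linear under 1) for single genes in the 5 subsets, with circles for cells w/o butyrate and outlined triangles for cells w/ butyrate. The Chil3 panel shows 2 of the 3 Prg4 and Alox15 cells w/ butyrate, at 583 and 544, above all cells w/o butyrate.

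The share of these cells did not differ between the libraries beyond counting error. Members made up 0.358% of cells w/o butyrate (exact binomial interval 0.248 to 0.500%) and 0.291% w/ butyrate (0.188 to 0.429%), a log2 ratio of −0.30 with an interval from −1.11 to 0.49. Macrophage-like cells were 58.8% of members w/o butyrate (40.7 to 75.4%) and 52% w/ butyrate (31.3 to 72.2%), a log2 ratio of −0.18 (−1.31 to 0.90). The C1q-low kind called Ly6c2 cells made up 20.6% of members w/o butyrate (8.70 to 37.9%) and 12% w/ butyrate (2.55 to 31.2%). Counting all members with 2 or more Ly6c2 UMIs gave 10 of 34 (29.4%, 15.1 to 47.5%) and 4 of 25 (16%, 4.54 to 36.1%). With 59 cells, differences within these intervals were not detectable.

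Within each library, macrophage-like cells differed from C1q-low cells in genes other than C1q as well. Of 604 genes with 50 or more UMIs over both kinds in each library, 33 (5.46%) were at least 2-fold higher and 33 (5.46%) at least 2-fold lower in macrophage-like cells of both libraries. The cells were split by C1q on the same counts, so these are a description. Retnla (330 and 246 UMIs in macrophage-like cells), Pf4 (221 and 137) and Alox15 (107 and 166) had 0 UMIs in C1q-low cells of both libraries. Most of these UMIs were in the Prg4 and Alox15 cells. For Pf4, 1 of those cells in each library held 200 of the 221 and 132 of the 137 UMIs. Timp2, an inhibitor of metalloproteinases, was spread more widely, with UMIs in 16 of 20 and 7 of 13 macrophage-like cells and log2 ratios of 2.13 and 2.66. On the other side, Hp had 108 and 86 UMIs in C1q-low and 0 and 7 in macrophage-like cells, and Il1b, the inflammatory cytokine, 64 and 50 against 0 and 1. The S100a8 and S100a9 cells held 56 of the 64 and 25 of the 50 Il1b UMIs, and 18 of the 108 and 48 of the 86 Hp UMIs. S100a6, a calcium-binding protein of monocytes, had log2 ratios of −2.40 and −3.05 for macrophage-like over C1q-low cells. S100a4 had −2.39 and −1.81, and Plac8 −1.80 and −2.88. The S100a8 and S100a9 cells held 56 of the 352 S100a6 UMIs of C1q-low cells w/o butyrate. W/ butyrate they held 182 of the 498, of which 175 were in 1 cell.

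Comparing w/ with w/o butyrate, UMIs were summed over the macrophage-like cells of each library (146052 and 132416 UMIs) and scaled to 1000000 UMIs (CPM), with log2 ratios of CPM + 10. Of 818 genes with 50 or more UMIs over both sums, 41 (5.01%) were at least 2-fold higher and 63 (7.7%) at least 2-fold lower w/ butyrate, and the median of all 818 was 0.04. The genes named are the 10 lowest and 10 highest ratios with at least 100 CPM in 1 library and no single cell holding over 50% of the UMIs of the higher library. The lowest was Ccl2, with 142 UMIs in 9 of 20 cells against 6 in 3 of 13 (log2 −4.15, interval −5.23 to −3.14). It was −1.37 without cells holding a Cd79 UMI, which leaves 13 and 9 macrophage-like cells, and −0.51 with no limit on Cd3 and Cd79. Vcam1, an adhesion molecule of lymph node macrophages, had 64 UMIs in 9 cells against 7 in 5 (log2 −2.83, −3.91 to −1.83). Its ratio was −0.82 with no limit and −0.025 with each cell thinned to 2000 UMIs. Mmp14, a membrane metalloproteinase, had a log2 ratio of −3.43, and of −3.72 and −2.55 under both of these changes. Maf (−2.52) and Nr1h3 (−2.20), transcription factors of macrophages and of cholesterol response, came to −0.70 and −0.91 with no limit, and Nr1h3 to −0.62 without cells holding a Cd79 UMI. The ratios for Sirpa, the receptor for the signal CD47 (−1.98), Marcks (−1.95), Mfsd1 (−1.93), Clic4 (−1.83) and the lysosomal protease Lgmn (−1.81) completed the 10 lowest. Sirpa came to −0.73 without cells holding a Cd79 UMI, and with no limit Marcks came to −0.33 and Mfsd1 to −0.74.

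Chil3 gave the highest of these ratios, with 291 UMIs w/o and 1993 w/ butyrate (log2 2.91, 2.73 to 3.09). Of these, 250 of 291 and 1992 of 1993 were in the Prg4 and Alox15 cells. Without those 6 cells, Chil3 had 41 UMIs against 1, a log2 ratio of −3.77, so its direction was set by 3 cells of each library. Add3 also turned, from 1.84 to −1.49. The other genes among the 10 highest were Lyz1 (1.98), Ier3 (1.79), Klf4 (1.72), Sec11c (1.48), Junb (1.37), Sdf2l1 (1.35), Fkbp2 (1.16) and Tmem176b (1.09). Lyz1 came to 5.22 without the 6 cells. With no limit on Cd3 and Cd79, Klf4 came to 0.37, Ier3 to 0.82, Add3 to 0.45 and Sec11c to −0.029. Sdf2l1 came to −0.21 after thinning, and Fkbp2 and Tmem176b to −0.20 and −0.36 without cells holding a Cd79 UMI. Junb, a transcription factor of the AP-1 family, with 53 UMIs in 10 of 20 cells against 126 in 7 of 13, came to 1.33 without the 6 cells and to 0.86 after thinning.

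**Figure D4:**
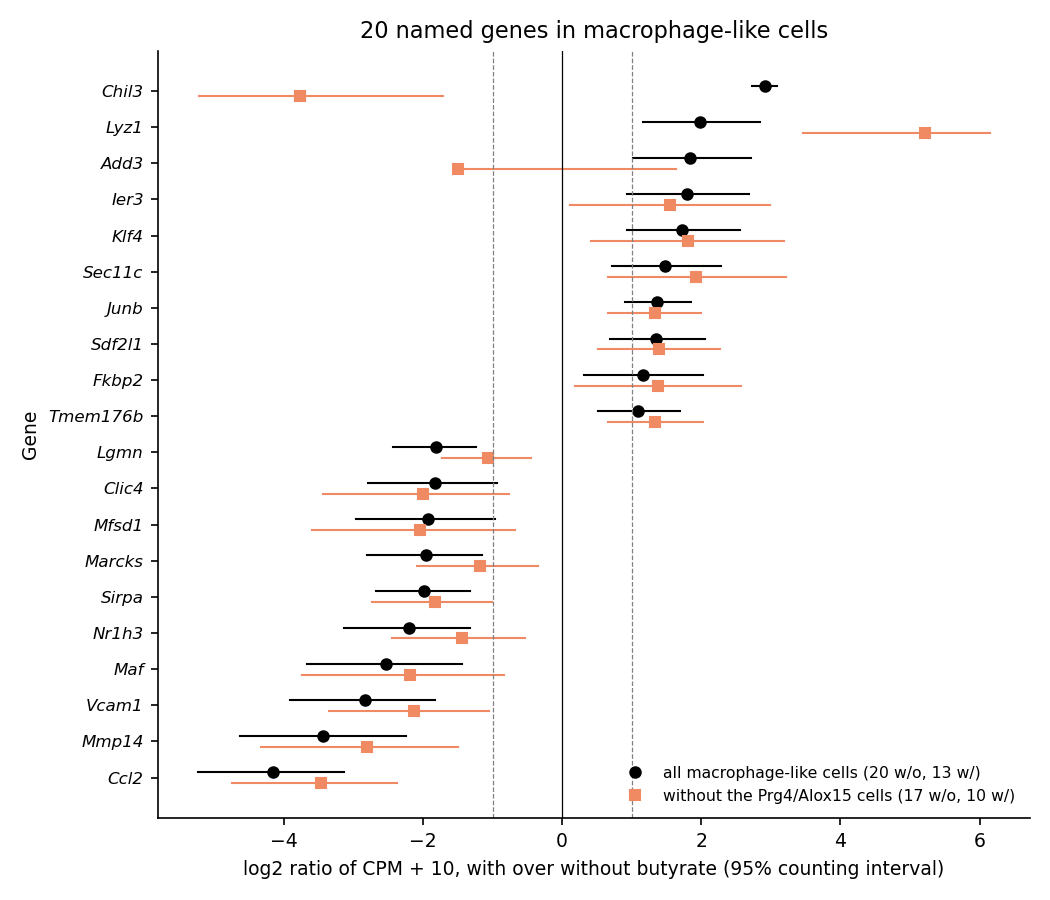
log2 ratios of CPM + 10, w/ over w/o butyrate, of the 20 named genes in macrophage-like cells (x axis, with 95% counting intervals), for all macrophage-like cells and without the Prg4 and Alox15 cells. Chil3 lies at 2.91 with all cells and at −3.77 without those 6 cells, while Ccl2 lies at −4.15 and −3.46.

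Gene lists are read against the 7.7% of all 818 genes that were at least 2-fold lower and the 5.01% that were higher. Of 7 inflammatory cytokines and chemokines with enough UMIs in macrophage-like cells, 3 were at least 2-fold lower w/ butyrate and none was 2-fold higher, with a median of −0.76 against 0.04 for all 818 genes. Besides Ccl2, which stood at −0.51 with no limit on Cd3 and Cd79, these were Cxcl10, an interferon-induced T cell attractant (69 UMIs against 4, log2 −3.58), and Ccl12 (96 against 32, −1.41). Of the 69 Cxcl10 UMIs, 1 cell held 39 and another 15. Of 18 lysosomal genes, 5 were at least 2-fold lower and none higher (median −0.18). These were Lgmn, Ctsb (503 against 129 UMIs, −1.81), Cd63 (−1.42), Psap (690 against 239, −1.38) and Grn (−1.20). Without the 6 cells, Ctsb stood at −1.65, Psap at −0.81 and Lgmn at −1.07. Ctsd (−0.99) was close to the limit, and Lamp2 (0.01), Hexa (0.05) and Cd68 (0.11) were near 0.

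The other lists were read in the same way. Among 15 resident macrophage genes, C1qa (0.10), C1qc (0.07) and Cd68 (0.11) were near 0, and the median was 0.07. On this list 4 genes were at least 2-fold lower (Marco, Vcam1, Maf and Lgmn) and 1 was higher. The higher one was Apoe, a lipid carrier (217 against 608 UMIs, log2 1.62), of which 1 cell w/ butyrate held 336. The rule used C1qa and C1qc, so their values and the median of the list are a description. Of 8 complement genes, 7 lay above 0, as did 53.2% of all 818 genes. None was past 2-fold and the median was 0.09, with C4b highest (48 against 86 UMIs, 0.96). C1q genes of the rule are on this list too, so its count and median are a description. Of 3 genes of efferocytosis and scavenger receptors, all lay below 0 and 1 was past 2-fold (median −0.60). This was Marco, while Msr1 stood at 46 against 27 UMIs (−0.60) and Mrc1 at −0.26. Over all members 5 of 6 genes of that list lay below 0 (median −0.77), against 52.6% of all 1457 genes (median −0.03). Among the 5 was Axl, a receptor for dying cells (37 against 18 UMIs, −0.94). Of 5 lipid handling genes, 2 were at least 2-fold lower and 1 was higher, with a median of 0.02. Lpl (lipoprotein lipase) had 74 UMIs against 7 (−3.04), of which 1 cell w/o butyrate held 55. MHC class II genes had a median of 0.26 over 6 genes, none of them past 2-fold. H2-Ab1 stood at 0.70, and at 1.54 without the 6 cells, where 1 cell w/ butyrate held 197 of 297 UMIs. In alternative activation, Chil3 was the only gene of 6 past 2-fold, beside Alox15 (0.77), Ccl24 (0.13) and Retnla (−0.28). Of 14 genes of handling stress and immediate early response, 4 were at least 2-fold higher and none lower (Jun 1.98, Ier3, Junb and Egr1 1.12), with a median of 0.69. W/ butyrate, 48 of the 49 Egr1 UMIs were in Prg4 and Alox15 cells, against 5 of 24 w/o butyrate. Without those 6 cells Egr1 had 19 UMIs against 1 and turned to −2.71. Of the 79 Jun UMIs w/ butyrate, 1 cell held 42. The part of these genes in the other ratios was not tested.

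In C1q-low cells (93216 and 104883 UMIs), 26 of 573 genes (4.54%) were at least 2-fold higher and 21 (3.66%) at least 2-fold lower w/ butyrate, and the median of all was −0.06. Ly6c2 cells held 75.9% of these UMIs w/o and 34.8% w/ butyrate, and the part of this difference in the ratios was not tested. The lowest named ratios were those of Ifi27l2a, an interferon-induced gene (146 against 53 UMIs, log2 −1.61, and −0.23 as a mean over cells), and Mpeg1, the pore-forming perforin-2 of macrophages (85 against 32, −1.55). Btg2 (−1.40), Ms4a4c (−1.30), Emp3 (−1.25), Ccl9 (−1.20), Cd68 (−1.20), Itgal (−1.16), Ccl6 (−1.14) and Cd300a (−1.13) followed. Of these, Btg2 came to −0.20 with no limit on Cd3 and Cd79, and Ms4a4c to −0.57 with a Lyz2 limit of 2. Thinning gave −0.39 for Emp3, −0.10 for Cd300a and −0.77 for Itgal, and turned Ccl9 and Ccl6 to 0.55 and 0.51. Over 22 alternatives the ratio of Cd68 ran from −5.97 to −0.93. The highest were Ncl (1.33), Cdkn1a, a cell cycle inhibitor (1.22), Efhd2, Psmb3, Jun (1.13), Pgk1, Tspo, Hspe1, Ldha (0.97) and Ndufb8 (0.95). All 10 had counting intervals that began above 0, from 0.14 for Ndufb8 to 0.64 for Ncl, but these cover counting error only and several ratios were smaller under alternatives. Thinning to 2000 UMIs gave 0.044 for Efhd2 and 0.25 for Jun. Cdkn1a came to 0.50 as a mean over cells, Tspo from 1.01 to 0.48 with a Lyz2 limit of 2, Hspe1 from 0.99 to 0.40 without the deepest cell, and Ncl to 0.67 with no limit on Cd3 and Cd79.

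Lists in C1q-low cells are read against 3.66% of genes lower and 4.54% higher. Lysosomal genes had 4 of 12 at least 2-fold lower and none higher (median −0.81): Cd63 (−1.68), Cd68, Ctsb (−1.09) and Ctsd (−1.07). MHC class II genes had 4 of 5 at least 2-fold higher (median 2.11), with H2-Ab1 at 25 against 224 UMIs. The cell of 24869 UMIs named above held 178 of these 224, so this value was mostly that of 1 cell. The neutrophil list had 5 of 6 at least 2-fold higher (median 2.12), again mostly from 1 cell. Hmox1, haem oxygenase, had 60 UMIs against 5 (−3.50), of which 1 Ly6c2 cell w/o butyrate held 49. Stress and immediate early genes had a median of −0.41, with 2 of 14 at least 2-fold higher (Jun and Ier3) and 2 at least 2-fold lower (Btg2 and Dusp1), whereas in macrophage-like cells the median was 0.69.

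The summed level of interferon response genes was lower w/ butyrate in the 59 cells and in the rest of the libraries. Summed over the 59 cells, 8 of the 26 genes had 50 or more UMIs, all 8 were below 0 and 6 at least 2-fold lower, with a median of −1.22. Of all 1457 genes, 52.6% were below 0, 4.19% were at least 2-fold lower and 2.75% at least 2-fold higher, with a median of −0.03. Irf7, the factor that amplifies the response, had 71 UMIs against 20 (log2 −1.70), Ifi27l2a 308 against 109 (−1.47), Bst2 130 against 52 (−1.27), and Isg15, the ubiquitin-like modifier, 62 against 26 (−1.17). Some of these UMIs were in few cells. Of the 71 Irf7 UMIs, 1 Ly6c2 cell held 22 and 1 macrophage-like cell 19, and that macrophage-like cell held 21 of the 62 Isg15 UMIs. W/ butyrate, 1 cell held 18 of the 26 Isg15 UMIs and another 11 of the 20 Irf7 UMIs. Ifi204 stood at −1.01, Trim30a at −0.69 and Zbp1 at −0.62. The summed level of the list was 4008 CPM w/o butyrate (exact Poisson interval 3758 to 4270) and 1606 w/ butyrate (1448 to 1775).

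By subset, the summed list stood at 5059 against 1618 CPM in Ly6c2 cells, 4386 against 1739 in the other macrophage-like cells and 1709 against 900 in the Prg4 and Alox15 cells. In the mixed C1q-low cells it was 3257 against 2371 CPM, with intervals that overlapped (2418 to 4294 and 1983 to 2811). Of its single genes, Isg15 stood at 261 against 359 CPM, Irf7 at 65.1 against 71.8 and Ifi27l2a at 391 against 377, each from few UMIs. In the S100a8 and S100a9 cells it was 845 against 1886 CPM, from 6 and 24 UMIs. All other cells of the libraries, mostly lymphocytes, also had less, 2427 CPM w/o and 1371 w/ butyrate, with all 26 genes below 0, 3 at least 2-fold lower and a median of −0.55. Of all 12224 genes with 50 or more UMIs there, 42.2% were below 0 and 0.106% at least 2-fold lower, with a median of 0.01. The lower level was thus not particular to monocytes and macrophages. Per gene, Isg15 stood at −1.17 in the members and −1.10 in the other cells, Ifi27l2a at −1.47 and −1.005, and Irf7 at −1.70 and −0.83. Whether these pairs differ was not tested.

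**Figure D5:**
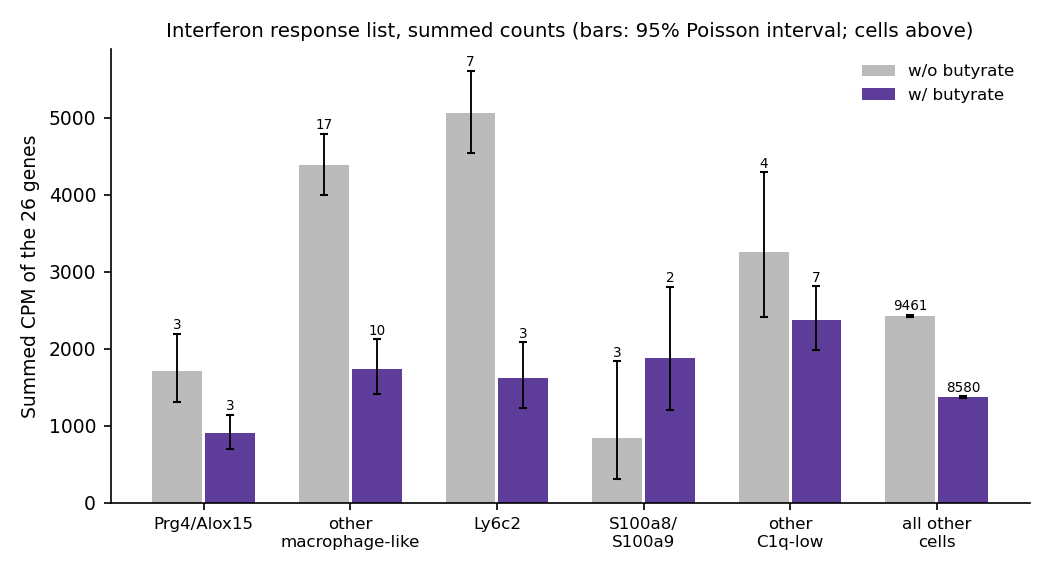
Summed CPM of the 26 interferon response genes (y axis) in the 5 subsets and in all other cells, for each library, with 95% Poisson intervals and the number of cells above each point. The level is lower w/ butyrate in 3 subsets and in all other cells (2427 against 1371 CPM), while the intervals overlap in the mixed C1q-low cells and in the S100a8 and S100a9 cells.

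The upstream sequence of Isg15 is printed because the gene was lower both in the members and in the other cells. The window, chr4:156200819-156201068 (GRCm38, RefSeq), ends at the start of the gene and is written 5′ to 3′ on the minus strand. Capitals mark GAAANNGAA, the core of the interferon-stimulated response element, which stands here 3 times with overlaps.
Isg15 upstream: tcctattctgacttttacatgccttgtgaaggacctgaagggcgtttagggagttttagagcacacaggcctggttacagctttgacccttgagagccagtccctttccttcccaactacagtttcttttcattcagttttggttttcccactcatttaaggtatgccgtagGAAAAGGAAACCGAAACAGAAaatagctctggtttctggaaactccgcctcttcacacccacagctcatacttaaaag

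On either strand, the letters were found in 9 of the 19 interferon response genes with an entry (47.4%) and in 7.13% of all promoters. They were in 0 of the 3 rule genes.

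Genes through which butyrate is known to act on cells could hardly be measured. None of the 18 receptors, transporters and deacetylases of that list reached 50 UMIs over both libraries. Ffar2, a receptor for short-chain fatty acids, had UMIs in 1 cell w/o and 0 w/ butyrate, and Hcar2, a receptor for butyrate and niacin, in 4 and 2 cells. At this depth no difference in these genes was detectable.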

How the data were processed

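MedLN cells of 4 mice were pooled per group, as the study describes. Per the labels, libraries were made with a 10x Genomics 3′ kit and reads were processed with Cell Ranger 6.0.1 against mm10. The authors deposited raw UMI counts per gene and cell, without normalization, for 31053 gene identifiers and 9681 and 8932 cells. Gene positions came from GENCODE M21, which held 30934 of the identifiers. No column of the authors' own comparisons was used.

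Everything else was computed from these counts in Python 3.11.15 (pandas 2.3.3, numpy 2.4.6, scipy 1.17.1). A cell had to have 200 genes and at most 10% mitochondrial UMIs, which left 9495 and 8605 cells with median depths of 5189 and 5768 UMIs. The study removed doublets with a tool not given in the sources used here. Here no cell was removed as a doublet, and 3 members, all macrophage-like and w/o butyrate, scored among the top cells of Scrublet (run in scanpy 1.11.5), taking 0.8% for every 1000 cells. Cell names were rebuilt from the rule, so they may differ from the study's.

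UMIs were summed per library and kind of cell and scaled to CPM. After 10 CPM had been added, log2 ratios were taken between libraries for genes whose 2 sums held 50 or more UMIs. Each condition had 1 library, so no test was made. Intervals are Clopper-Pearson for shares, exact Poisson for sums and exact binomial for ratios. The step was also run on simulated data, and the outcome is not reported here. The genes named in ratios are the 10 highest and 10 lowest with at least 100 CPM in 1 library and no cell with over 50% of the UMIs of the higher library, list genes with 50 or more UMIs, and the 20 leading genes against other cells. The 30 gene lists held 412 genes, of which 411 were in the files. The members and lists were chosen with earlier results of these data known. The subsets, their cut-offs (5 UMIs of Prg4 and Alox15, 10 of S100a8 and S100a9, 2 of Ly6c2) and the genes that describe them were chosen after the cells' values were seen. Alternatives varied the cell filters, the limits of the rule, the scaling, the pseudocount, the minimum of UMIs and the treatment of single cells. Some genes of the lists are counted but not reported here by name.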

Additional observations from a re-analysis of the deposited data

Results flagged for a closer look

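Cells that met the Lyz2 or C1q limit but also held Cd3 or Cd79 UMIs were outside the comparisons. Most of them held UMIs of further myeloid genes. There were 15 such cells w/o butyrate and 14 w/ butyrate, of which 7 and 8 had 3 or more C1q UMIs. Fcer1g was found in 14 of 15 and 13 of 14, and Tyrobp in 14 and 13. The background share of cells with a UMI of these genes is not given here. Their median depth was 12763 and 9733.5 UMIs, against 5328 and 4269 in the members, and none was among the highest Scrublet scores. Whether they are doublets, cells with adhering lymphocyte RNA or single cells was not tested.

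Apoe and Pgk1 had ratios of opposite sign in the 2 kinds of cells. The log2 ratio w/ over w/o butyrate of Apoe was 1.62 in macrophage-like and −1.003 in C1q-low cells, and that of Pgk1, a glycolytic enzyme, −1.17 and 1.07. These were the 2 of 507 genes tested in both kinds that were past 2-fold in opposite directions, while 265 of the 507 had opposite signs. In macrophage-like cells w/ butyrate, 1 cell held 336 of the 608 Apoe UMIs, and in C1q-low cells 1 cell held 77 of 132. Without the top cell of each sum, Apoe stood at 0.93 and −1.70 and Pgk1 at −1.30 and 1.27. With 1 library per condition the difference was not tested.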

How the results depend on the processing

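The log2 ratio of the members' share kept its sign over 14 alternatives (−0.49 to −0.18). That of the macrophage-like share went from −0.28 to 0.32, within its counting interval. Counts past 2-fold moved with the cells and the minimum of UMIs used. In macrophage-like cells (41 higher, 63 lower) they were 19 and 28 with Cd79 at 0, 4 and 4 after thinning to 2000 UMIs, 5 and 6 with a minimum of 200 UMIs, and 883 and 1595 with none. In addition, 107 were lower as a mean over cells, 20 were higher without the Prg4 and Alox15 cells and 23 higher without the deepest cell; both of these settings were added after seeing the data. In C1q-low cells (26 higher, 21 lower) they were 4 and 9 after thinning, 8 and 3 at 200 UMIs, 1211 and 1869 with no minimum, and 16 and 35 without the top cell of each gene. Lower genes there numbered 43 with Lyz2 at 2, 41 with Cd79 at 0, 45 with no lymphocyte limit, 40 as a mean over cells and 9 without the deepest cell. For macrophage-like over C1q-low cells (33 and 33), they were 14 and 11 with Cd79 at 0, 7 and 5 after thinning, 7 and 8 at 200 UMIs and 538 and 383 with no minimum, and 61 were higher with no lymphocyte limit. Of the function lists in the members, 7 had a median below that of all genes, against 4 after thinning, 4 at 200 UMIs and 11 with no minimum, where the number of lists with enough genes also changed.

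Signs reversed for Fkbp2 (−0.20 with Cd79 at 0, −0.070 with no limit), Tmem176b (−0.36 with Cd79 at 0), Sec11c (−0.029 with no limit), Sdf2l1 (−0.21 thinned), Ccl6 in C1q-low cells (0.015 with no limit, 0.51 thinned), Ccl9 (0.55 thinned), and Chil3 and Add3 (−3.77 and −1.49 without the Prg4 and Alox15 cells). The cause was not tested, except that each of these settings removes or adds cells or UMIs. No paired analysis was possible because each condition has 1 library.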
